A study of Mus musculus with 6 samples.

Results

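The transcripts described here encode the 3 D-type cyclins (Ccnd1, Ccnd2 and Ccnd3), the kinases they activate (Cdk4 and Cdk6) and the pocket proteins those kinases phosphorylate (Rb1, Rbl1 and Rbl2). The 8 genes were taken by symbol from the 23420 symbols of the count tables, and all 8 were among the 15284 genes that passed the filter on low counts. They were selected on measured values: their fold changes and calls between the genotypes, in which Ccnd1 and Cdk4 stood out, were known when the family was chosen, so their differences between genotypes are given as values and not as evidence. RNA came from tooth germs of C57BL/6 mouse embryos at E15.5, in 3 wild-type and 3 Smad7-/- libraries. The Smad7-/- embryos lack a working Smad7 gene, whose product is an inhibitory SMAD that dampens the TGF-beta and BMP pathways, and the labels name no treatment. The form of the mutant allele and the number of embryos behind a library are not given in the sources used here, so the spread between libraries may be partly technical.

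D-type cyclins link growth signals to the cell cycle. They accumulate in the first gap phase, bind CDK4 or CDK6, and the active kinase phosphorylates the retinoblastoma protein and its relatives p107 (Rbl1) and p130 (Rbl2), which then release E2F transcription factors and allow genes of DNA replication to be transcribed. TGF-beta and BMP signals can hold cells in this phase through CDK inhibitors. In the tooth germ the enamel knot leaves the cell cycle while the epithelium and mesenchyme around it go on dividing.

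Smad7 was lower in each library labelled Smad7-/-, at 2.13, 1.43 and 0.712 CPM (counts scaled to the size of the library, here with the trimmed mean of M-values, TMM), than in the 3 wild-type ones, at 21.4, 18.9 and 17.99 CPM. Depth ran from 37591888 to 56575476 counts per library. All 8 epithelial and all 8 mesenchymal marker genes of the tooth were present. The epithelial markers (among them Krt5, Krt14 and Shh) summed to 9840 to 10865 CPM in wild type and 8418 to 10066 in Smad7-/-, and the mesenchymal ones (among them Prrx1, Barx1 and Runx2) to 228 to 291 and 350 to 380. Macrophage markers summed to 106 to 144 and 177 to 196 CPM, and osteoclast markers to 491 to 798 and 1090 to 1241. The globin genes Hba-a1, Hba-a2 and Hbb-b1 are listed at 0 in all 6 libraries. Along the first principal component (33.5% of the variance) wild-type library 1 lay with Smad7-/- libraries 1 and 2, and wild-type libraries 2 and 3 with Smad7-/- library 3, so this division crossed genotype. Wild-type library 1 and Smad7-/- library 3 were the libraries with Xist, with 195 and 365 CPM of it, against at most 0.202 in the others.

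Cyclin D1 transcripts were lower in every Smad7-/- library than in any wild-type library. Ccnd1, the D-type cyclin most widely induced by mitogens, was at 22.1, 21.7 and 20.3 CPM in the wild-type libraries, and at 9.50, 11.5 and 8.73 CPM in the Smad7-/- libraries. The groups lay far apart, and the counts behind these values were 967 to 1134 and 357 to 503. The means were 21.4 ± 0.978 and 9.90 ± 1.40 CPM (SD, n = 3), a ratio of 0.463 and a log2 difference of -1.11 ± 0.14 (SE of the edgeR fit). Of the 15284 genes tested, 99.2% had a smaller absolute log2 difference.

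The other cyclins did not share this pattern. Ccnd2, a D-type cyclin prominent in neural and gonadal tissue, was at 17.5, 18.4 and 15.1 CPM in wild type and at 17.9, 13.6 and 10.01 CPM in Smad7-/-. The groups overlapped, since Smad7-/- library 1 lay within the wild-type range while the other Smad7-/- libraries lay below it (log2 difference -0.30 ± 0.20 SE). It was -0.12 without Smad7-/- library 3 and -0.53 without Smad7-/- library 1. Ccnd3, the D-type cyclin of maturing blood and many differentiating cells, was at 50.4, 40.6 and 44.4 CPM in wild type and at 52.3, 59.8 and 53.4 CPM in Smad7-/-. Every Smad7-/- library lay above every wild-type one, but Smad7-/- library 1 and wild-type library 1 were close (log2 difference 0.29 ± 0.11 SE).

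**Figure D1:**
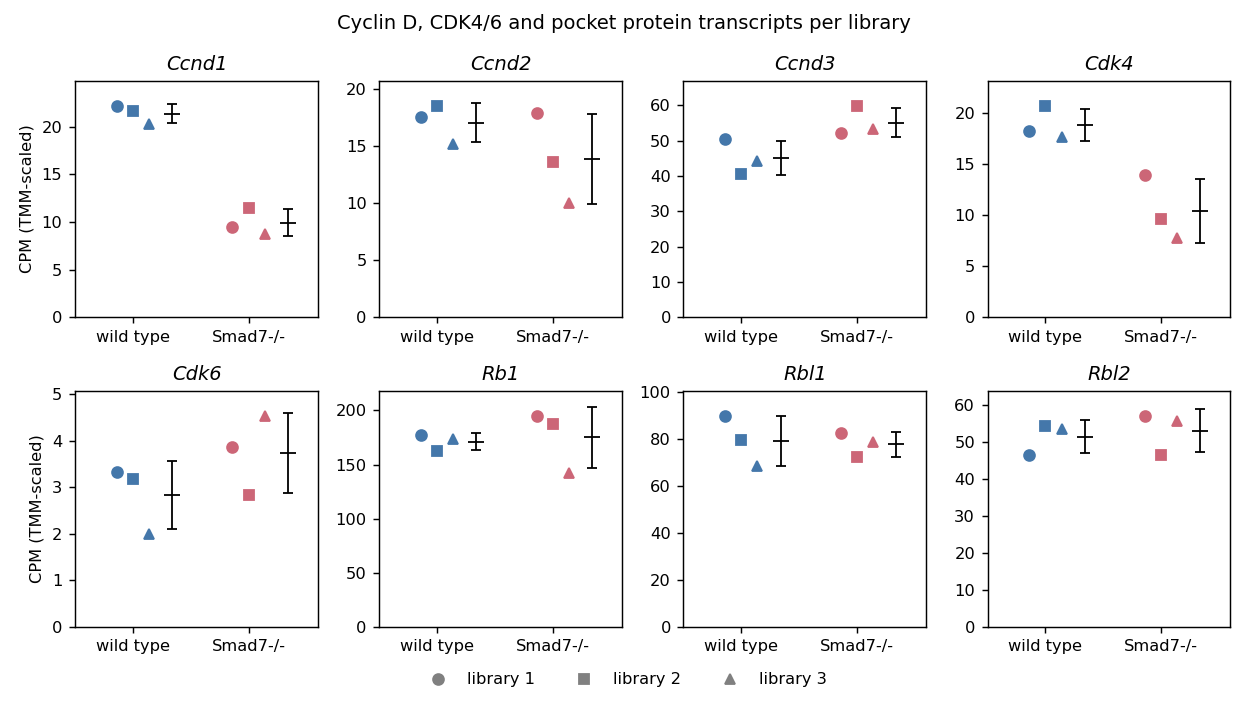
Level of each of the 8 genes in CPM (vertical axes, each from 0) in 3 wild-type and 3 Smad7-/- libraries, with the mean and SD as a black bar. The Ccnd1 and Cdk4 points of the Smad7-/- libraries all lie below the wild-type points, those of Ccnd3 above, and the groups overlap for the other 5 genes.

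Set per length, the cyclin D pool differed in make-up between the genotypes. Each level was divided by the merged length of the gene's exons and expressed as a share of the sum of the 3 cyclins in the same library. Ccnd1 made up 38.2%, 41.1% and 39.2% of this sum in wild-type libraries 1 to 3 and 20.4%, 22.8% and 20.6% in the Smad7-/- libraries. Ccnd3 made up 46.7%, 41.4% and 46.1%, and 60.3%, 63.7% and 67.6%. Neither gene's share overlapped between the groups, and that of Ccnd2 did, at 14.7% to 17.5% and 11.8% to 19.2%. In wild-type library 2 the shares of Ccnd1 and Ccnd3 were nearly level, while in each Smad7-/- library Ccnd3 held most of the pool. The summed level of the 3 cyclins was 11.5 ± 0.712 CPM per kb in wild type and 9.85 ± 0.843 in Smad7-/- (SD, n = 3), and each Smad7-/- library (9.88, 10.7 and 9.0004) lay below each wild-type one (12.3, 11.2 and 11.0). These shares rest on the same counts as the differences above. With the longest transcript as length, Ccnd1 held 28.5% and 13.8% and Ccnd3 58.1% and 74.8% on average, so the share of Ccnd3 in wild type depends on the length used. The separation of the summed cyclin levels depends on it too. It holds for merged exons, while with the longest transcript the sums of the groups overlap.

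**Figure D2:**
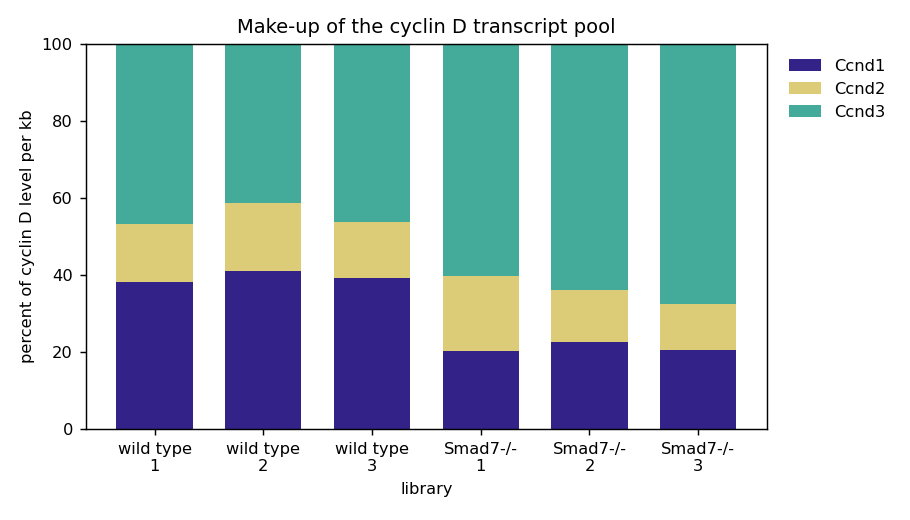
Share of Ccnd1, Ccnd2 and Ccnd3 in the summed cyclin D level (CPM per kb of merged exons, vertical axis in percent) in each of the 6 libraries. The Ccnd1 segment covers 38.2% to 41.1% in wild type and 20.4% to 22.8% in Smad7-/-.

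Of the kinases, Cdk4 was lower in Smad7-/- than in wild type, and Cdk6 was at a low level in both genotypes. Cdk4 encodes the cyclin D kinase found in most dividing cells, and its level was 18.2, 20.7 and 17.7 CPM in wild type and 13.9, 9.64 and 7.72 CPM in Smad7-/-. The groups did not overlap, and Smad7-/- library 1 stood nearest to wild type. The means were 18.9 ± 1.61 and 10.4 ± 3.17 CPM (SD, n = 3), a ratio of 0.553 and a log2 difference of -0.86 ± 0.20 (SE), and 98.2% of tested genes had a smaller absolute difference. Without Smad7-/- library 1 the log2 difference was -1.12. Cdk6, the related kinase best known from blood and glial cells, was at 3.32, 3.17 and 1.99 CPM in wild type and at 3.86, 2.83 and 4.53 CPM in Smad7-/-, from 95 to 261 counts per library. Its groups overlapped (log2 difference 0.40 ± 0.27 SE), and the difference was 0.21 without wild-type library 3 and 0.24 without Smad7-/- library 3. Per kb, Cdk6 made up 2.55% to 4.06% of the summed kinase level in wild type and 6.05% to 12.0% in Smad7-/-, so Cdk4 held most of it in every library. The summed level of both was 5.58 to 6.59 CPM per kb in wild type and 2.70 to 4.56 in Smad7-/-.

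The promoters of the kinases are shown because the groups did not overlap for Cdk4 and did for Cdk6, its nearest relative. Cdk4 did not pass edgeR's test over all genes (adjusted p = 0.586). Cdk6 varied too much between libraries to show that it lacks a difference. RefSeq's promoter table (GRCm38.p6) matched 5 of the 8 members, namely Ccnd3 (with 2 starts), Cdk4, Cdk6, Rbl1 and Rbl2, and not Ccnd1, Ccnd2 or Rb1. The 250 bases before each start were searched on both strands for the E-box CACGTG (bound by MYC and its partner MAX), the TCF/LEF motif CTTTGAT, the CRE motif TGACGTCA, the AP-1 motif TGANTCA, the SMAD box CAGACA, the GC-rich box GGCGCC bound by BMP-activated SMADs, and E2F sites spelled TTTCGCGC, TTTCCCGC, TTTGGCGC or TTTGCCGC. None of these motifs contains another. Both sequences run 5′ to 3′ on the forward strand, and capitals mark the motifs found. The Cdk4 window is chr10:127063285-127063534 and the Cdk6 window chr5:3343643-3343892.
Cdk4: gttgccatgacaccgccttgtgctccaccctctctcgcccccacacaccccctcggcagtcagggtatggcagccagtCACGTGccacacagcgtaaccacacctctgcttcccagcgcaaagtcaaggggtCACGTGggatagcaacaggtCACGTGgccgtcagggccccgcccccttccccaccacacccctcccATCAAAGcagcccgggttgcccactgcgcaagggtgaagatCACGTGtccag
Cdk6: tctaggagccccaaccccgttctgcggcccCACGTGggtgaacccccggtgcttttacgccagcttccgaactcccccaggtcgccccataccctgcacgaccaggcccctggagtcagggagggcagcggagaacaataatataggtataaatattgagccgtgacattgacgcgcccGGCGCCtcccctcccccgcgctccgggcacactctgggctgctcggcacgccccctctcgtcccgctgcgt
The Cdk4 window holds 4 E-boxes, which begin 172, 118, 98 and 11 bases before the start, and 1 TCF/LEF motif at 52 bases. The E-box occurs in 6.02% of the 32851 promoter windows, but 4 or more, the number seen in Cdk4, occur in 7 windows (0.0213%). GC content was 64.4% in the Cdk4 window and 66.0% in the Cdk6 window, against a median of 52.4% over all windows. The shares are not matched for GC content, on which motifs such as CACGTG and GGCGCC depend. The Cdk6 window holds 1 E-box, at 220 bases, and 1 GGCGCC box at 71 bases, which is found in 9.59% of windows. TCF/LEF motifs were found in 3.21% of windows. The windows of Ccnd3 and Rbl2 hold none of the motifs searched. A match of letters is not evidence that a factor binds there. Myc itself averaged 32.4 CPM in wild type and 28.7 CPM in the Smad7-/- libraries (log2 difference -0.17 ± 0.12 SE; singled out here for its known binding to the E-box).

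The pocket protein genes had nearly equal levels in both genotypes. Rb1, the retinoblastoma tumour suppressor, was at 177, 162 and 174 CPM in wild type and at 195, 188 and 142 CPM in Smad7-/-. The Smad7-/- libraries spread on both sides of the wild-type range, with library 3 the lowest of all 6 (log2 difference 0.03 ± 0.12 SE). Rbl1, whose protein p107 is made mainly in cycling cells, was at 89.9, 79.8 and 68.5 CPM in wild type and at 82.8, 72.2 and 78.6 CPM in Smad7-/-. All Smad7-/- values fell inside the wild-type range (-0.03 ± 0.11 SE). Rbl2, whose protein p130 is best known in resting cells, was at 46.3, 54.3 and 53.4 CPM in wild type and at 56.9, 46.4 and 55.6 CPM in Smad7-/- (0.05 ± 0.11 SE). These groups overlapped as well. With SEs near 0.11 on the log2 scale, differences the size of that of Ccnd1 lie far outside what these values allow, while small ones would not be seen. Within the family, Rb1 made up 56.8% to 61.0% of the summed level per kb in wild type and 53.6% to 63.2% in Smad7-/-.

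Rbl1 is a known target of the E2F factors its protein restrains, and its promoter window is shown for that site. It is chr2:157204535-157204784 on the reverse strand, with the E2F motif in capitals.
Rbl1: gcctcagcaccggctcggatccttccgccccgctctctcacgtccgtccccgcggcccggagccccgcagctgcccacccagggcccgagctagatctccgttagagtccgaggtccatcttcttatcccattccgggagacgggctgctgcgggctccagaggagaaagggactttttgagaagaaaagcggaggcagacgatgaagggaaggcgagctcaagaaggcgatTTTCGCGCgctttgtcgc
The motif TTTCGCGC begins 18 bases before the start. Any of the E2F spellings occurs in 1.86% of the promoter windows. The Rbl1 window is 63.6% GC, and this share too is not matched for GC content.

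Ordered by level per length in wild type, the pocket proteins stood above the kinase and cyclin genes. Rb1 was highest at 28.5 ± 1.30 CPM per kb (SD, n = 3), above 88.2% of the tested genes with a length, followed by Rbl1 at 13.2 ± 1.79 and Rbl2 at 6.80 ± 0.583. Cdk4 at 5.81 ± 0.494, Ccnd3 at 5.14 ± 0.559 and Ccnd1 at 4.53 ± 0.208 came next, and the ranges of Rbl2 and Cdk4, of Cdk4 and Ccnd3, and of Ccnd3 and Ccnd1 overlapped, so their order is not settled by these libraries. Ccnd2 at 1.81 ± 0.181 and Cdk6 at 0.202 ± 0.0521 were lowest, and neither range overlapped that of the gene above it. The median of the tested genes was 5.001 CPM per kb, so Ccnd1 and Cdk4 stood near the middle of the transcriptome. In Smad7-/- the order was Rb1, Rbl1, Rbl2, Ccnd3, Cdk4, Ccnd1, Ccnd2 and Cdk6. There the ranges of Ccnd3 and Cdk4 no longer overlapped (means 6.28 and 3.21 CPM per kb), while those of Rbl2 and Ccnd3, of Cdk4 and Ccnd1 (2.10) and of Ccnd1 and Ccnd2 (1.47) did. Measured against the longest transcript in place of merged exons, Ccnd3 moved to the third place in both genotypes, above Rbl2.

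**Figure D3:**
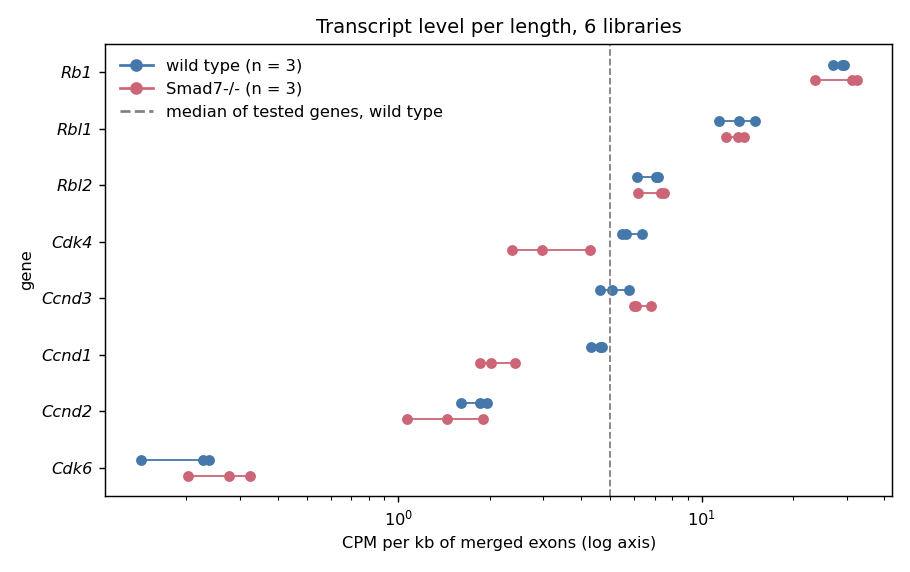
Level per length of the 8 genes (horizontal log axis, CPM per kb of merged exons) in each wild-type and Smad7-/- library, with a line over each group's range and the median of all tested genes in wild type (5.001) dashed. Rb1 and Rbl1 lie above the other genes in both genotypes, and Ccnd1 and Cdk4 are the genes whose Smad7-/- range lies left of the wild-type range without overlap.

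In the fit over all genes, edgeR's quasi-likelihood test with Benjamini-Hochberg adjustment called 1 of the 8 members, Ccnd1, where it called 4 of 15284 genes (0.0262%), of which 0.0131% were lower, as Ccnd1 was, and 0.0131% higher. DESeq2 called Ccnd1 and Cdk4, both lower, where it called 59 of 16816 genes (0.351%), 0.0892% lower and 0.262% higher. The group ranges did not overlap for 3 members (Ccnd1, Ccnd3 and Cdk4), where this held for 8.88% of all tested genes. Because the members were chosen with these calls known, nothing is read from the counts. The Ccnd1 call was lost when any single library of the 6 was left out and with the sex of the libraries as a covariate, while its log2 difference stayed between -1.23 and -1.03. The median log2 difference of the members was 0.00, as was that of all tested genes.

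The differences were also taken within each side of the division of the libraries that crossed genotype. For Ccnd1, Cdk4 and Ccnd3 the groups did not overlap, so their direction had to be the same on both sides. Only the sizes are described for them. Between Smad7-/- libraries 1 and 2 and wild-type library 1 the log2 ratio of mean CPM was -1.08 for Ccnd1 and -0.63 for Cdk4. Between Smad7-/- library 3 and wild-type libraries 2 and 3 it was -1.26 and -1.31. For Ccnd3 the values were 0.15 and 0.33, for Ccnd2 -0.15 and -0.75, and for Cdk6 0.01 and 0.81. For Rb1 (0.11 and -0.24) and Rbl1 (-0.21 and 0.08) they differed in sign, and for Rbl2 they were 0.16 and 0.05. Each of these ratios has 1 library on a side and no test.

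**Figure D4:**
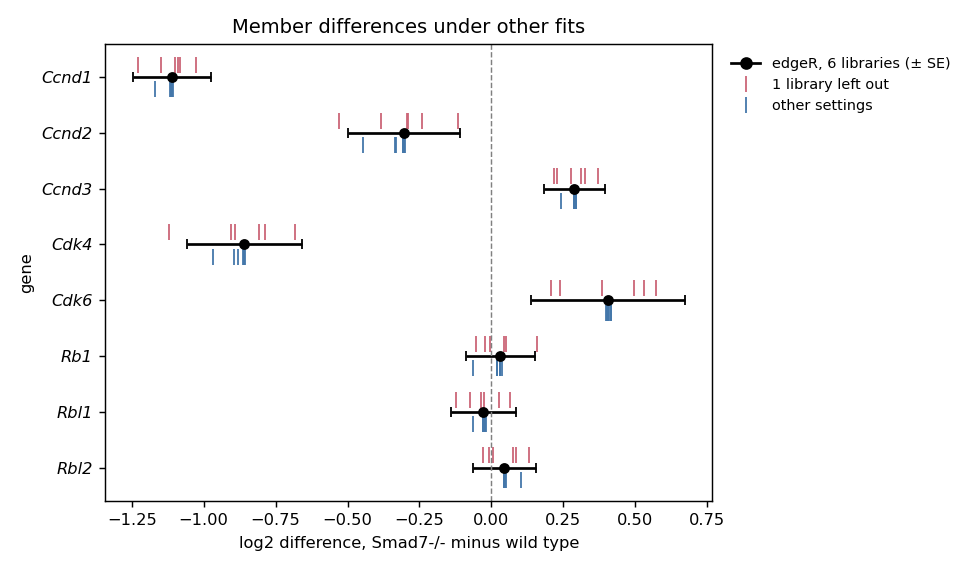
Log2 difference between Smad7-/- and wild type (horizontal axis) of each gene in the edgeR fit of 6 libraries (black, with SE), with 1 library left out (red ticks, 6 fits) and under 9 other settings (blue ticks). The ticks of Ccnd1, Ccnd2 and Cdk4 all lie below 0 and those of Ccnd3 and Cdk6 above, while those of the 3 pocket protein genes lie on both sides of 0.

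Reads on the members may be shared with genes on the opposite strand, since the library kit does not record the strand. In the GENCODE M21 annotation of mm10, Ccnd1 lies on chromosome 7 at 144929931 to 144939925 (reverse strand) and shares 1100 bases of exon, 23.4% of its merged exons, with Oraov1. Cdk4 lies on chromosome 10 at 127063534 to 127067920 (forward strand) and shares 641 bases, 19.7%, with Tspan31. Oraov1 averaged 21.1 ± 1.55 CPM in the wild-type group and 20.01 ± 0.754 in Smad7-/- (SD, n = 3), and Tspan31 at 100.2 ± 8.90 and 89.5 ± 8.31, with overlapping groups in both cases. Tspan31 was more abundant than Cdk4, which averaged 18.9 CPM in wild type and 10.4 in Smad7-/-. What shared reads add to the levels of Ccnd1 and Cdk4 was not tested. Ccnd2 lies on chromosome 6 at 127125162 to 127152193, Ccnd3 on chromosome 17 at 47505051 to 47599691 and Cdk6 on chromosome 5 at 3341485 to 3531008, and none shares over 5% of its exons with a gene in the tables. RefSeq lists a pseudogene of Ccnd3 on chromosome 4, and how reads were divided between them is not given in the sources used here. Rb1 lies on chromosome 14 at 73183673 to 73325822 and overlaps Rcbtb2 and Lpar6 (log2 differences -0.09 ± 0.12 and 0.01 ± 0.11 SE). Rbl1 lies on chromosome 2 at 157145893 to 157204534. Rbl2 lies on chromosome 8 at 91070057 to 91123844 and shares 9.17% of its exons with Aktip, a gene of vesicle transport and telomere upkeep, and 892 bases, 11.8%, with Gm45464, a non-coding gene on the opposite strand for which no value was used here. Aktip averaged 55.9 ± 6.13 CPM in the wild-type group and 41.5 ± 4.10 in Smad7-/-, without overlap of the groups (-0.43 ± 0.11 SE), and it did not pass the edgeR test over all genes.

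The genes whose levels over the 6 libraries followed those of Ccnd1 most closely were sought among 10839 others with a mean of at least 5 CPM. Likeness was the root mean square distance between log2 CPM profiles, each centred on its own mean. Cdk4 was the nearest of all, at 0.285, followed by AI464131 at 0.290 and Cyb5d2 at 0.295. For Cdk4 the nearest were Aim2, a sensor of cytosolic DNA, at 0.272, then Ccnd1 at 0.285 and Ccnd2 at 0.287. Ccnd2 was the near gene whose groups overlapped: in Smad7-/- it was, like Cdk4, highest in library 1 and lowest in library 3. The 6 libraries of each profile share their depth and genotype, so this is a description of likeness only. Genotype was not removed from the profiles, so genes that differ alike between the groups are near each other by that alone. Ccnd1 and Cdk4 were chosen with that difference known. Within Smad7-/- their order was not the same, since Cdk4 was highest in library 1 and Ccnd1 was not.

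Beyond the 8 members, none of the 97 tested genes in 9 further lists of the pathway passed edgeR's test over all genes (0 higher, 0 lower). At an unadjusted p under 0.05 there were 5 higher and 1 lower, where 5.14% of all tested genes reached that level, and DESeq2 called 1, Cdkn1a, higher. The group ranges did not overlap for 9 genes on the higher and 5 on the lower side, against 4.97% and 3.91% of all tested genes.

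CDK inhibitors are the brakes on cyclin D kinases, and of the 7 measured 5 were higher and 2 lower in Smad7-/-, with a median log2 difference of 0.32. Of all 15284 tested genes 7498 were higher. Between Smad7-/- libraries 1 and 2 and wild-type library 1, 6 of the 7 were higher (median 0.39). Between Smad7-/- library 3 and wild-type libraries 2 and 3, 6 were higher as well, but the median was 0.07. Cdkn1a itself was at 0.90 and 0.38 on these sides. Cdkn1a, which encodes p21, was at 17.4, 16.4 and 16.5 CPM in wild type and at 35.5, 29.6 and 21.4 CPM in Smad7-/-. The groups did not overlap, and Smad7-/- library 3 was the nearest to wild type (log2 difference 0.78 ± 0.17 SE; edgeR adjusted p = 0.536). Cdkn1c, which encodes p57 and was the most abundant inhibitor, stood at 131 ± 17.9 and 134 ± 21.6 CPM (SD, n = 3; 0.04 ± 0.14 SE). The remaining inhibitors ranged from -0.05 to 1.10, the highest being Cdkn2a at under 1 CPM in both groups.

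Of the 10 E2F and DP factors, which pocket proteins restrain, 3 were higher and 7 lower, with a median of -0.05. The abundant DP partners Tfdp1 and Tfdp2 stood at -0.05 ± 0.10 and 0.05 ± 0.09 SE. Target genes of E2F at the entry into S phase were all on the lower side, 23 of 23, by small amounts with a median of -0.11, where 7786 of all 15284 tested genes were lower and their median was 0.00. Rrm1 and Rrm2, the subunits of ribonucleotide reductase, stood at -0.20 ± 0.12 and -0.31 ± 0.12 SE, and the maintenance methyltransferase gene Dnmt1 at -0.17 ± 0.12. Rrm2 was at 50.4 to 52.9 CPM in wild type and at 34.5, 41.6 and 48.9 CPM in Smad7-/-, without overlap of the groups. The count rested partly on single libraries: 16 of 23 were lower without wild-type library 1 (median -0.03) and 19 without Smad7-/- library 1 (-0.05). The median was -0.20 without wild-type library 3 and -0.18 without Smad7-/- library 3. The direction also differed between the sides of the division that crossed genotype: 23 of 23 were lower in Smad7-/- libraries 1 and 2 than in wild-type library 1 (median -0.34), but 19 of 23 were higher in Smad7-/- library 3 than in wild-type libraries 2 and 3 (median 0.09). All 8 genes of the cyclin E/A and CDK2 step, which follows cyclin D in the cycle, were also lower (median -0.12), with Ccna2 at -0.22 ± 0.16, Cks1b at -0.15 ± 0.10 and Cdk2 at -0.10 ± 0.09 SE. Of these, 6 of 8 were lower without Smad7-/- library 1 (median -0.07), and the median was -0.21 without Smad7-/- library 3. Between the same sides, 8 of 8 were lower on the first (median -0.23) and 5 of 8 higher on the second (median 0.03). None of these genes passed the test.

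The remaining partners of the pathway lay close to 0. The kinase complex that activates CDKs, with the CDK4 chaperones Cdc37 and Hsp90ab1 (-0.06 ± 0.09 and 0.00 ± 0.13 SE), had a median of 0.00. Genes of cyclin D turnover had a median of -0.03, among them Ddb1, part of the ubiquitin ligase that removes D-type cyclins, at -0.03 ± 0.09, and Gsk3b, a kinase linked to cyclin D1 export and breakdown, at 0.00 ± 0.10. The MuvB group, which joins p107 and p130 in repressing cell cycle genes, was listed together with its separate partners Mybl1, Mybl2 and Foxm1. This list had a median of -0.03, with Rbbp4 of MuvB at -0.09 ± 0.10 and the partner Foxm1 at -0.04 ± 0.09. Chromatin factors that bind the retinoblastoma protein also had a median of -0.03, with Hdac1 at -0.08 ± 0.08, Rbbp7 at 0.02 ± 0.10 and Kdm5a at -0.07 ± 0.10.

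**Figure D5:**
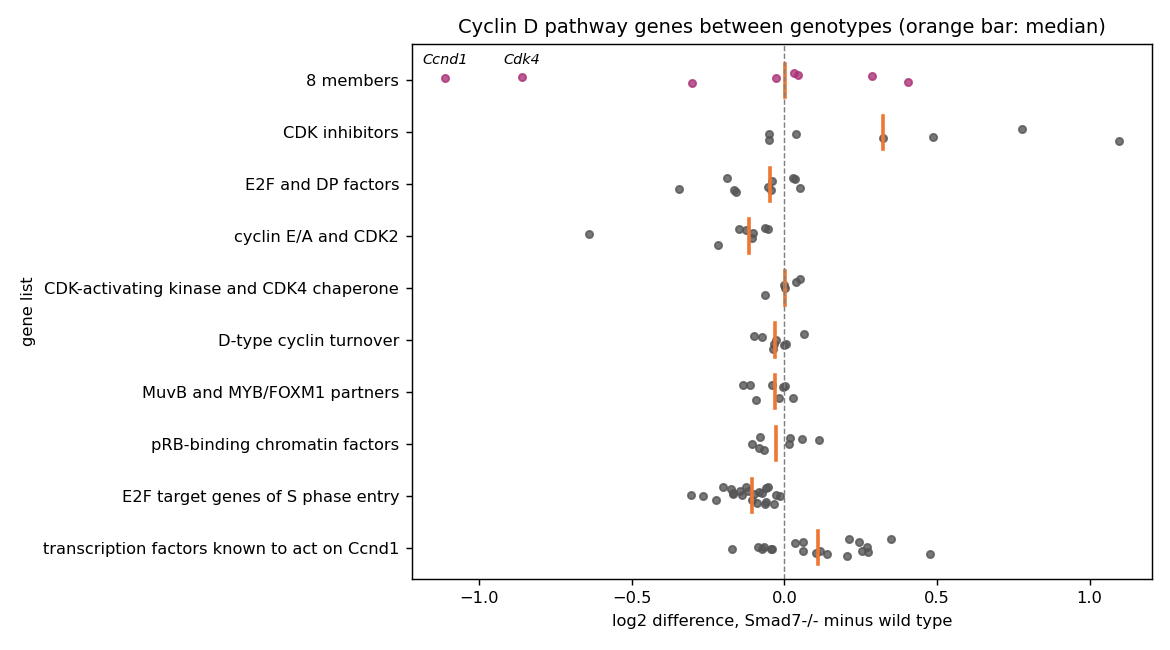
Log2 difference between Smad7-/- and wild type (horizontal axis) of each tested gene in 10 gene lists (vertical axis), with the list's median as an orange bar. Ccnd1 and Cdk4 are the lowest points of all lists, and the 23 E2F target genes all lie left of 0.

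Of 20 tested transcription factors known to act on the Ccnd1 gene, 14 were higher in Smad7-/- and 6 lower, with a median of 0.11, and 7 had group ranges that did not overlap, all higher, where this held for 4.97% of all tested genes on the higher and 3.91% on the lower side. Without Smad7-/- library 1, 13 of the 20 were higher (median 0.06), and the median was 0.07 without wild-type library 2. Tcf7, a nuclear partner of beta-catenin, was at 82.4, 56.7 and 66.6 CPM in wild type and at 107, 93.1 and 86.9 CPM in Smad7-/- (log2 difference 0.48 ± 0.14 SE; edgeR adjusted p = 0.696). The abundant members Ctnnb1, which encodes beta-catenin, and Sp1 stood at -0.09 ± 0.12 and 0.03 ± 0.09 SE. None passed the test. Mesenchymal markers were higher in the same comparison, 8 of 8 with a median of 0.48, and epithelial markers lower, 8 of 8 with a median of -0.13. Without Smad7-/- library 3, 6 of the 8 epithelial markers were lower (median -0.07), and without Smad7-/- library 2 their median was -0.24. The 10 markers of proliferating cells were all lower, with a median of -0.15 and no group free of overlap. That count did not hold on both sides of the division that crossed genotype: 10 of 10 were lower on the first side (median -0.26) and 10 of 10 higher on the second (median 0.13). It was 8 of 10 without Smad7-/- library 2 (median -0.07), and the median was -0.08 without Smad7-/- library 1 and -0.34 without Smad7-/- library 3. In bulk RNA, fewer cells of a type and less RNA per cell cannot be told apart, and the part of these marker differences in the levels of Ccnd1 and Cdk4 was not tested.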

How the data were processed

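RNA of tooth germs was sequenced in 6 libraries, made with an RNeasy kit and a TruSeq RNA kit per the labels' protocols. The deposited files hold raw counts per gene symbol. Per the submitters' processing notes, the authors used HISAT2, mm10, featureCounts and DESeq2; versions, strand setting and treatment of reads with several matches are not given in the sources used here. Of the symbols, 27 had become dates in a spreadsheet program and hold at most 0.223% of a library's counts.

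The members and gene lists were chosen with earlier results of these data known. Low counts were removed by filterByExpr with a minimum count of 10 and a minimum total of 15. The minimum count acts as a CPM cutoff in at least as many libraries as a group holds. A tested gene can therefore have fewer counts in some libraries. Libraries were scaled by TMM, and genes were tested with edgeR 4.0.16's quasi-likelihood test (R 4.3.3, robust fit, no covariate). Its p-values were adjusted by Benjamini-Hochberg over 15284 genes with a threshold of 0.05. DESeq2 1.42.0 was an alternative. A p-value here reflects no more than the spread of these libraries. The fit was also run on simulated counts with the same variability setting for every gene. Those counts lack the division seen between these libraries, so nothing about the results is concluded from that run. Levels per kb used merged exon lengths from GENCODE M21, found for 93.7% of tested genes. Named in each list were genes past the threshold or, with none, the 2 most abundant and the 1 with the largest difference among those of at least 1 CPM whose groups did not overlap. The 3 nearest profiles to Ccnd1 and to Cdk4 were named too, leaving out gene models. Precision is limited by 3 libraries a group, and without molecular identifiers a read is not an independent molecule. Figures were drawn with matplotlib 3.10.9.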

Additional observations from a re-analysis of the deposited data

How the results depend on the processing

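Alternatives were DESeq2, RLE size factors, library totals, no filter, a mean of at least 1 CPM, a non-robust fit, a replicate block, sex or the side of the first principal component as a covariate, and leaving out each library. No member's log2 difference moved by more than the SD between libraries of a group in any of the 15. For the fits without 1 library this was nearly fixed in advance, since removing 1 library shifts a group mean by less than that SD. In those fits Cdk4 ran from -1.12 to -0.68 and Ccnd2 from -0.53 to -0.12. The sign held in all 15 for Ccnd1, Ccnd2, Ccnd3, Cdk4 and Cdk6, in 11 for Rb1, and in 13 each for Rbl1 and Rbl2. Ccnd1 was called in 8 of 9 settings that kept all libraries and in 0 of 6 without 1 library, and Cdk4 by DESeq2 alone.

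The 4 genes called by edgeR became 59 with DESeq2, and ran from 1 to 7 without 1 library (2, 1 and 7 without Smad7-/- library 1, 2 and 3). The 0 called genes of the further pathway lists became 1 with DESeq2 (Cdkn1a).

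Replicate numbers were not taken to pair the libraries: residual correlations of libraries of the same number were 0.169, -0.0339 and 0.0927, and 3 of 6 libraries correlated best with their own number. With the replicate block 4 genes were called, 0 of them among the further pathway genes, and the log2 differences were -1.12 for Ccnd1, -0.33 for Ccnd2, 0.29 for Ccnd3, -0.89 for Cdk4, 0.41 for Cdk6, 0.02 for Rb1, -0.02 for Rbl1 and 0.04 for Rbl2.

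With the longest transcript as length, mean levels per kb in wild type and Smad7-/- were 5.71 and 2.65 for Ccnd1, 2.69 and 2.19 for Ccnd2, 11.7 and 14.3 for Ccnd3, 9.19 and 5.08 for Cdk4, 36.8 and 37.6 for Rb1, 16.3 and 16.02 for Rbl1 and 10.4 and 10.8 for Rbl2. The mean cyclin shares became 28.5% and 13.8% for Ccnd1, 13.4% in wild type for Ccnd2, and 58.1% and 74.8% for Ccnd3. These follow from the shorter lengths.

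Counts of list members on one side were recomputed in the same 15 alternatives, added after the data were seen. They ran from 16 to 23 for E2F targets (lower), from 6 to 8 for the cyclin E/A and CDK2 genes (lower), from 8 to 10 for proliferation markers (lower), from 13 to 16 for the factors that act on Ccnd1 (higher), from 6 to 8 for epithelial markers (lower), and were 8 throughout for mesenchymal markers (higher).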

Other observations

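Markers of proliferating cells (Mki67, Top2a, the mitotic cyclins and kinases) varied among the libraries across genotype. Their summed level was 960, 1158 and 1067 CPM in the wild-type libraries and 824, 732 and 1250 CPM in the Smad7-/- libraries, so Smad7-/- library 3 was the highest of all 6. Ccnd1 and Cdk4 were at their lowest in that same library, at 8.73 and 7.72 CPM. Cdkn1a was at 21.4 CPM there, the lowest of the Smad7-/- libraries, and Cdk6, at 4.53 CPM, the highest of all. These values were singled out after they were seen, and no test was made of them.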
